A study of Homo sapiens with 13 samples.

Results

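Integrins, collagens and laminins are the cell's matrix receptors and 2 large families of matrix proteins. They were taken here by gene symbol: ITGA or ITGB followed by digits or a letter, LAMA, LAMB or LAMC followed by digits, and COL followed by digits, A and digits. The rule found 81 genes of 24,875 symbols in the Silvestrol table, namely 26 integrins, 12 laminins and 43 collagens, and 41 of the 81 were also listed among the 13,121 symbols of the INK128 table. All 13 libraries were made from MDA-MB-231, a triple-negative human breast carcinoma cell line, and so they describe 1 cell line in culture. Silvestrol inhibits eIF4A, the helicase that opens the 5′ UTR of mRNAs for the scanning ribosome, and INK128 inhibits the catalytic site of mTOR. Ribosome footprints (RFs) are the mRNA fragments that ribosomes protect from nuclease, and they were sequenced from cells left untreated and after 1 h or 2 h in DMSO or in Silvestrol, at 25 nM throughout. The untreated and 1 h libraries came from passage 3, and the 2 h treatments were done at passages 3 and 4, which are the replicates; polyadenylated mRNA was sequenced from the 2 h treatments at passage 3 only. In a second experiment at passage 3, RFs and total RNA were sequenced after 2 h of DMSO or 200 nM INK128, with 1 library for each. The labels of 2 libraries contradict their titles: the Silvestrol RF sample of passage 3 titled 2 h has a field that says 1 h, and 1 field calls the DMSO mRNA library untreated. The titles were followed, and every value of footprints per mRNA with DMSO or of its change with Silvestrol rests on that mRNA library.

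An integrin is a heterodimer of 1 α and 1 β chain that spans the plasma membrane, binds matrix outside the cell and couples it through talin and kindlin to actin inside. A laminin is a cross-shaped trimer of 1 α, 1 β and 1 γ chain, and laminin networks are a scaffold of the basement membrane on which epithelial and carcinoma cells rest. Collagens are trimers whose chains repeat glycine in a fixed triplet pattern, and they form fibrils (types I and V), the basement membrane network (type IV) or beaded filaments (type VI), while some (types XIII and XVII) are anchored in the plasma membrane.

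The values used are RPKM, a level corrected for transcript length and library size, which are relative to each library's total. The DMSO mRNA library held 50,315,607 counted reads, the most of all, and the passage 4 Silvestrol library 2,652,423, the fewest, so that passage 4 with Silvestrol gives the least precise values. Of the markers listed for the line, VIM, CD44, AXL, CAV1 and MSN were read in every library, with VIM between 4789 and 7031 RF RPKM, while ESR1 had no read in any library, PGR at most 2 and CDH1 at most 26. ERBB2 and EPCAM, which were listed as low in this line, were read in every library, at up to 4.05 and 9.94 RF RPKM, and so was the luminal marker GATA3, at up to 8.45; the luminal marker FOXA1 had at most 3 reads. Among fibroblast markers DCN, PDGFRA, POSTN, THY1 and FAP had at most 3 reads in a library, LUM at most 37 and PDGFRB between 13 and 893. Among leukocyte markers CD3E had no read, PTPRC at most 12, LYZ 3 to 27 and CD14 1 to 323, and among endothelial markers CDH5 had at most 1, VWF at most 11, PECAM1 at most 73 and KDR 3 to 238. CD14 reached 1.30 and LYZ 2.03 RF RPKM, and the part of these low levels in the results was not tested.

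Of the 81 genes, 29 were measured, 42 had reads but were below the minimum and 10 had no read in any library of the Silvestrol experiment. Measured means that the passage 3 libraries of 2 h averaged 1 RPKM or more in RFs and 0.3 RPKM or more in mRNA, and such genes numbered 10,505 in all. The α chains ITGA2, ITGA3, ITGA5, ITGA6, ITGAE and ITGAV and the β chains ITGB1, ITGB2, ITGB3, ITGB4 and ITGB5 were measured, which makes 11 of 26 integrins. Of 12 laminin chains 6 were measured, among them LAMA5, LAMB1, LAMB2, LAMB3 and LAMC1, and so were 12 of 43 collagen chains (COL1A1, COL4A1, COL4A2, COL5A1, COL6A1, COL6A2, COL8A1, COL9A2, COL12A1, COL13A1, COL17A1 and COL18A1).

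The genes with reads below the minimum were the integrins ITGA1, ITGA2B, ITGA7, ITGA9, ITGA10, ITGA11, ITGAM, ITGAX, ITGB6, ITGB7 and ITGB8, the laminins LAMA1, LAMA2, LAMA3, LAMA4, LAMB4 and LAMC3, and 25 collagens. Those were COL1A2, COL2A1, COL3A1, COL4A3, COL4A4, COL4A5, COL4A6, COL5A2, COL5A3, COL6A3, COL7A1, COL8A2, COL9A1, COL9A3, COL11A1, COL15A1, COL16A1, COL19A1, COL20A1, COL21A1, COL23A1, COL24A1, COL25A1, COL27A1 and COL28A1. In the Silvestrol experiment no read was counted for the leukocyte integrins ITGA4, ITGAD and ITGAL, for ITGA8, or for COL10A1, COL11A2, COL14A1, COL22A1, COL29A1 and COL6A6. Chains that join the same molecule were thus not always measured together. COL1A2, the second chain of type I collagen, and LAMA3, the α chain of laminin-332, were both under the minimum while COL1A1 and LAMB3 were measured.

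ITGB1 and ITGA3 led the group in footprints. ITGB1, the β chain shared by most matrix-binding integrins, averaged 167 RF RPKM over the 4 libraries of 2 h, ITGA3, an α chain for laminins, 96.3, LAMB3 36.2, ITGA6 34.5 and COL8A1 26.7. In all, 14 of the 29 averaged at least 10. The mRNA of the group was higher than that of most genes and its footprints lower. In bulk libraries, fewer cells that express a gene and less RNA per cell cannot be told apart. With DMSO the median mRNA level was 27.2 RPKM over the 29 members and 12.1 over all 10,505 genes, whereas the median RF level at 2 h in passage 3 was 6.92 RPKM over the members and 20.8 over all genes.

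**Figure D1:**
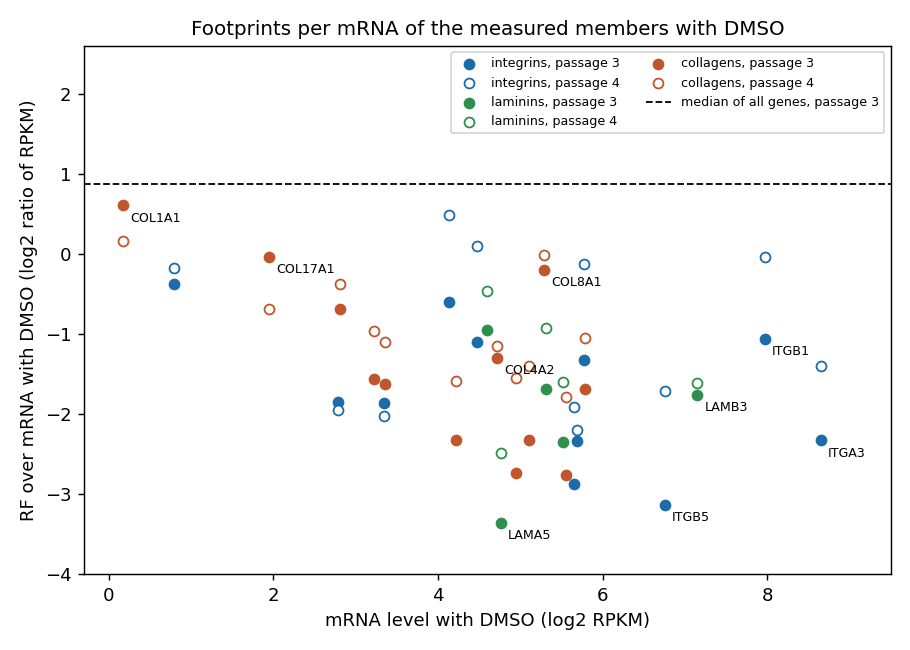
Footprints per mRNA with DMSO, as the log2 ratio of RF RPKM to mRNA RPKM, against the mRNA level (log2 RPKM) for 28 of the 29 measured members. Filled points use RFs of passage 3 and open points those of passage 4, over the same mRNA library; the dashed line is the median of all genes, 0.88, and every point lies under it.

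The ratio of RF to mRNA RPKM is called translation efficiency (TE). With DMSO its median was 0.310 over the 29 members and 1.84 over all genes in passage 3, and all 29 members were below the median of all genes. With RFs of passage 4 over the same mRNA library, the medians were 0.449 and 1.83, and again all 29 were below. Low ratios were not particular to the members. In passage 3 with DMSO, FN1 had 18.4 RF against 87.1 mRNA RPKM, AGRN 7.94 against 67.9 and LOXL2 46.6 against 159.9. Other partner genes listed further below had more RF than mRNA RPKM, such as TLN1 (184.0 against 134.0), PARVA (194.5 against 47.1) and THBS1 (250.8 against 208.2). The ratio was lowest for LAMA5 at 0.0978, ITGB5 at 0.114 and ITGB4 at 0.136, and highest for COL1A1 at 1.53 and COL17A1 at 0.979, which had the lowest mRNA levels of the collagens. The DMSO cells of the INK128 experiment did not show this position: the ratio of RF to total RNA was below the median of all genes for 13 of the 24 members measured there, with medians of 13.5 over the members and 14.7 over 7,102 genes. The experiments differ in the RNA that was sequenced and in the unit, and the part of either in this difference was not tested.

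The passages also differed in the level of these genes. With DMSO, 25 of the 29 had a higher RF RPKM in passage 4 than in passage 3, by a median of 1.56-fold, while over all genes the median ratio was 0.984. With Silvestrol, 25 of the 29 were again higher in passage 4, by a median of 1.37-fold against 1.04-fold for all genes. Genes outside the group also differed between passages 3 and 4 with DMSO, such as CD151 (282.9 and 594.8 RF RPKM) and TIMP1 (366.6 and 741.5). Others hardly did, such as TLN1 (184.0 and 183.1) and ILK (351.7 and 350.0). Changes at 2 h come from a fit that ignores the passage and from a fit with the passage as a block. With the block, the change is taken within each passage. For some genes the log2 change is printed from only 1 of these fits. The block leaves few degrees of freedom, so its p-values rest largely on a spread pooled over all genes.

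After 2 h of Silvestrol the footprints of the basement membrane chain COL4A2 and of COL8A1 fell, and no member rose, in edgeR's quasi-likelihood test on the read counts of the 4 libraries. Over all genes the same test called 7.76% lower and 2.23% higher. With the passage as a block 12 members were lower and 6 higher, against 28.1% and 25.0% of all genes. Among the 12 were the collagens COL1A1, COL4A2, COL5A1, COL8A1 and COL9A2, the laminins LAMB1, LAMB2, LAMB3 and LAMC1, and the integrins ITGA3 and ITGB5. The 6 higher were ITGA2, ITGA5, ITGAE, ITGB4, LAMA5 and COL6A1. DESeq2 without the block called COL4A2, COL5A1 and COL8A1 lower and no member higher, against 11.6% and 7.05% of the genes to which it gave an adjusted p. Of the 29 members 9 had an unadjusted p under 0.05 in edgeR without the block, against 31.3% of all genes. Leaving out either Silvestrol library ended both calls (0 members called), with adjusted p between 0.129 and 0.259 for the pair, while the log2 changes were −1.12 and −1.45 for COL4A2 and −0.84 and −1.19 for COL8A1. Leaving out a DMSO library added calls (COL5A1, ITGB5 and LAMB2 lower without passage 3, ITGA2 higher without passage 4, and ITGA5 higher in TE without passage 3). Each of these fits has 1 library in an arm, takes its spread from the other groups and mixes passage with treatment, so nothing is read from its calls. In RPKM, 17 of the 29 were lower with Silvestrol in both passages, 7 were higher in both and 5 differed in sign between the passages, against 50.0%, 30.5% and 19.5% of all genes. The median log2 change in RPKM was −0.20 in passage 3 and −0.34 in passage 4 over the members, and −0.17 and −0.15 over all genes. edgeR's scaling moves the median of all genes to −0.02 and that of the members to −0.17.

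**Figure D2:**
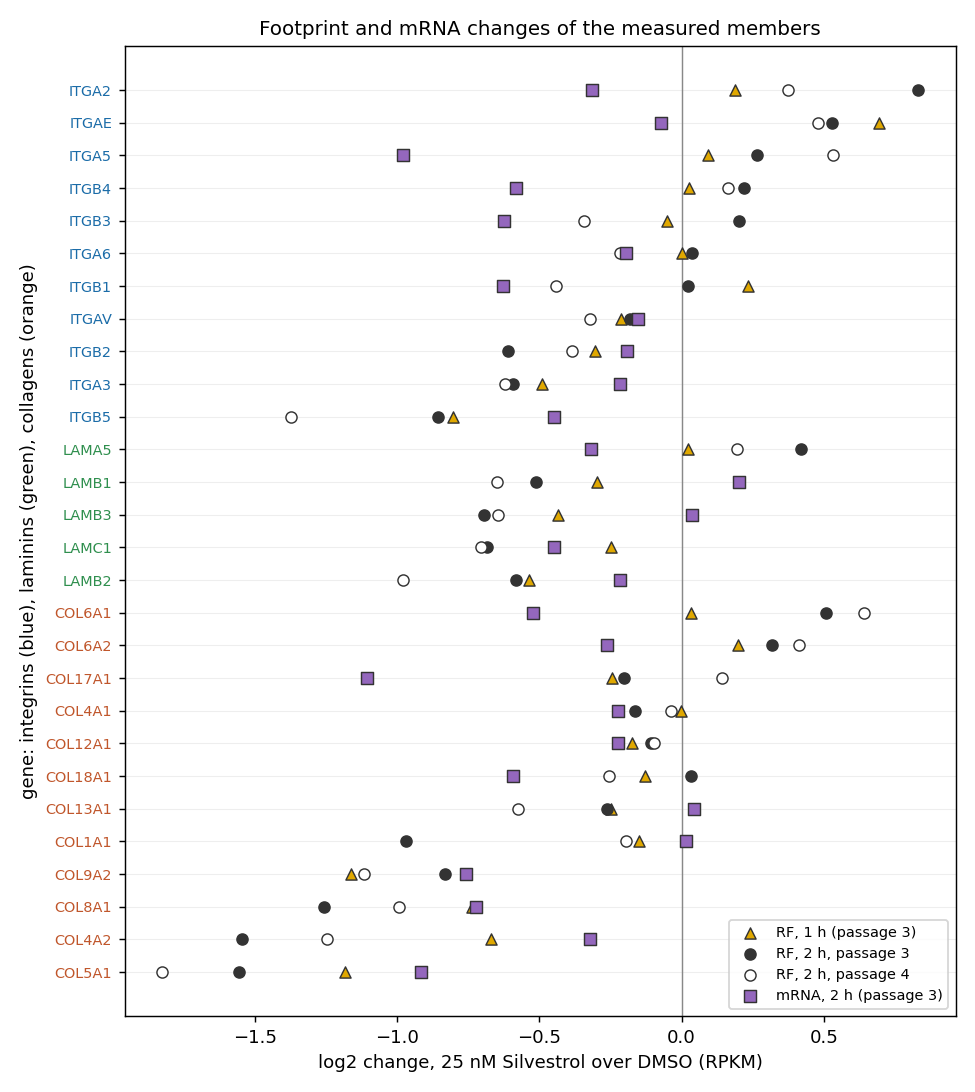
log2 change with 25 nM Silvestrol over DMSO (x axis, from RPKM) for 28 of the 29 measured members (y axis, grouped by family and ordered by the edgeR change at 2 h). Triangles are RFs at 1 h, filled circles RFs at 2 h in passage 3, open circles RFs at 2 h in passage 4 and squares mRNA at 2 h; COL5A1, COL4A2 and ITGB5 reach farthest left and ITGA2, ITGAE and COL6A1 farthest right.

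Among the integrin α chains, ITGA2, ITGA5 and ITGAE were higher and the laminin receptor chain ITGA3 was lower with Silvestrol in the test with the passage block. ITGA2 (chr5:52285170-52390609, plus strand, GRCh37), which pairs with ITGB1 as a collagen receptor, had an RF RPKM of 15.1 in untreated cells, 14.8 with DMSO and 16.8 with Silvestrol at 1 h, 10.4 and 23.7 with DMSO at 2 h, and 18.5 and 30.8 with Silvestrol at 2 h, where the first of each pair of values at 2 h is passage 3. Both passages were higher with Silvestrol, but the DMSO library of passage 4 lay above the Silvestrol library of passage 3, so the groups overlap. ITGA2 was called with the block but not without it (log2 change 0.65, SE 0.41, adjusted p = 0.336 without the block; log2 change 0.75, SE 0.12, adjusted p = 2.77e-09 with it). Its mRNA RPKM was 22.2 with DMSO against 17.8 with Silvestrol.

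ITGA5 (chr12:54789045-54813050, minus strand), the α chain of the fibronectin receptor, stood at 10.2 and 11.2 RF RPKM with DMSO and at 12.3 and 16.2 with Silvestrol at 2 h, against 12.9 and 13.7 at 1 h and 11.6 in untreated cells. The Silvestrol libraries of 2 h were above the DMSO libraries of 2 h in both passages and did not overlap with them (log2 change 0.52, SE 0.18, adjusted p = 0.126 without the block; log2 change 0.50, SE 0.14, adjusted p = 9.07e-04 with it). At the same time its mRNA was lower, at 51.6 with DMSO against 26.2 with Silvestrol, a log2 change of −0.98 between single libraries.

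ITGAE, which pairs with ITGB7 to bind E-cadherin, gave 2.80 and 2.48 RF RPKM with DMSO at 2 h, 4.04 and 3.46 with Silvestrol at 2 h, 2.35 and 3.80 in the DMSO and Silvestrol libraries of 1 h, and 2.84 in untreated cells. Silvestrol was above DMSO in each passage and at 1 h, and the 2 h groups did not overlap (log2 change 0.64, SE 0.25, adjusted p = 0.154 without the block; log2 change 0.65, SE 0.21, adjusted p = 0.00432 with it). ITGAE had few reads, between 43 and 344 in the RF libraries of 2 h, and its partner ITGB7 was under the minimum. Its mRNA RPKM was 10.1 with DMSO against 9.64 with Silvestrol.

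ITGA3 had an RF RPKM of 99.4 in untreated cells, 107 with DMSO and 76.1 with Silvestrol at 1 h, 80.1 and 153 with DMSO at 2 h, and 53.2 and 99.3 with Silvestrol at 2 h. Each Silvestrol library was below its own DMSO control, yet the passage 4 Silvestrol value exceeded the passage 3 DMSO value (log2 change −0.47, SE 0.38, adjusted p = 0.448 without the block; log2 change −0.46, SE 0.09, adjusted p = 3.22e-06 with it). The mRNA of ITGA3 had the highest level in the group, 403 with DMSO against 346 with Silvestrol.

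ITGA6, the α chain that joins ITGB4 in hemidesmosomes, stood at 21.9 and 50.4 RF RPKM with DMSO and at 22.5 and 43.3 with Silvestrol at 2 h, against 28.2 and 28.2 at 1 h and 28.4 in untreated cells. The passages differed more than the treatments, and neither fit called it (adjusted p = 0.980 and 0.757). ITGAV, the α chain of the vitronectin receptors, gave 11.6 and 24.7 RF RPKM with DMSO at 2 h, 10.3 and 19.7 with Silvestrol at 2 h, 14.7 and 12.7 in the DMSO and Silvestrol libraries of 1 h, and 15.1 in untreated cells, and was not called either (adjusted p = 0.824 and 0.447). Their mRNA RPKM was 54.7 with DMSO against 47.8 with Silvestrol for ITGA6, and 17.6 with DMSO against 15.8 with Silvestrol for ITGAV.

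Among the β chains ITGB4 was higher and ITGB5 lower with the block. ITGB1, the most abundant, had an RF RPKM of 147 in untreated cells, 144 with DMSO and 169.5 with Silvestrol at 1 h, 121 and 245 with DMSO at 2 h, and 123 and 181 with Silvestrol at 2 h. Its change had opposite signs in the passages, log2 0.02 in passage 3 and −0.44 in passage 4, and it was not called (adjusted p = 0.903 and 0.862). Its mRNA RPKM was 251 with DMSO against 162 with Silvestrol. ITGB4, the laminin-binding β chain of hemidesmosomes, stood at 6.84 and 13.4 RF RPKM with DMSO and at 7.97 and 15.0 with Silvestrol at 2 h, against 8.87 and 9.03 at 1 h and 7.68 in untreated cells. It was slightly higher with Silvestrol in each passage, with overlap between the groups, and was called only with the block (log2 change 0.29, SE 0.40, adjusted p = 0.652 without it; log2 change 0.32, SE 0.13, adjusted p = 0.0229 with it). The mRNA of ITGB4 went the other way, 50.3 with DMSO against 33.6 with Silvestrol.

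ITGB5 (chr3:124480795-124620265, minus strand), which pairs with ITGAV, gave 12.4 and 33.0 RF RPKM with DMSO at 2 h, 6.82 and 12.7 with Silvestrol at 2 h, 15.4 and 8.80 in the DMSO and Silvestrol libraries of 1 h, and 13.9 in untreated cells. It had the largest decrease of the integrins, in both passages and at 1 h, but its DMSO libraries differed from each other by more than the change in passage 3 and the groups overlapped (log2 change −1.11, SE 0.51, adjusted p = 0.212 without the block; log2 change −0.95, SE 0.15, adjusted p = 5.06e-10 with it). Leaving out 1 library moved it between −1.664 and −0.311. Its mRNA RPKM was 108 with DMSO against 79.4 with Silvestrol. In RFs, ITGB5 stood at 1.06 and 1.34 times the level of its partner ITGAV with DMSO and at 0.666 and 0.646 times that level with Silvestrol. The other measured β chains, ITGB2 and ITGB3, averaged 1.57 and 1.40 RF RPKM, and neither was called in either fit.

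The laminin chains LAMB1, LAMB2, LAMB3 and LAMC1 had fewer footprints with Silvestrol and the α5 chain more, in the fit with the block. Each of these β and γ chains was below its own DMSO control in both passages and at 1 h. LAMB3 (chr1:209788215-209825770, minus strand), the β chain of laminin-332, had an RF RPKM of 45.5 in untreated cells, 51.8 with DMSO and 38.3 with Silvestrol at 1 h, 42.1 and 46.7 with DMSO at 2 h, and 26.0 and 29.9 with Silvestrol at 2 h. Its 2 h groups did not overlap, and it was close to the threshold without the block (log2 change −0.55, SE 0.13, adjusted p = 0.0578) and past it with the block (log2 change −0.55, SE 0.11, adjusted p = 1.11e-06). With a minimum of 5 RPKM it was called lower without the block (adjusted p = 0.0451), which made 3 members lower. Its mRNA hardly differed, 142 with DMSO against 146 with Silvestrol.

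LAMB1, a β chain of the laminins of most basement membranes, gave 12.5 and 17.5 RF RPKM with DMSO at 2 h, 8.78 and 11.2 with Silvestrol at 2 h, 13.6 and 11.1 in the DMSO and Silvestrol libraries of 1 h, and 14.2 in untreated cells (log2 change −0.45, SE 0.12, adjusted p = 7.99e-04 with the block; adjusted p = 0.182 without it). Both Silvestrol libraries lay below both DMSO libraries at 2 h. LAMB1 had the highest mRNA change of the group, with an mRNA RPKM of 24.1 with DMSO against 27.7 with Silvestrol.

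LAMC1, the γ chain that LAMB1 and LAMB2 share, had an RF RPKM of 14.3 in untreated cells, 13.8 with DMSO and 11.6 with Silvestrol at 1 h, 12.4 and 20.9 with DMSO at 2 h, and 7.68 and 12.8 with Silvestrol at 2 h, with overlapping groups (log2 change −0.57, SE 0.12, adjusted p = 1.94e-05 with the block; adjusted p = 0.272 without it). LAMB2, the β chain known from the kidney filter and the nerve-muscle junction, stood at 9.06 and 15.2 RF RPKM with DMSO and at 6.05 and 7.68 with Silvestrol at 2 h, against 11.9 and 8.19 at 1 h and 10.6 in untreated cells, without overlap (log2 change −0.62, SE 0.13, adjusted p = 1.04e-05 with the block; adjusted p = 0.151 without it). Their mRNA RPKM was 39.7 with DMSO against 29.1 with Silvestrol for LAMC1, and 46.0 with DMSO against 39.6 with Silvestrol for LAMB2.

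LAMA5 (chr20:60883011-60942368, minus strand), the α chain of laminin-511 and laminin-521, gave 2.66 and 4.87 RF RPKM with DMSO at 2 h, 3.56 and 5.56 with Silvestrol at 2 h, 3.53 and 3.58 in the DMSO and Silvestrol libraries of 1 h, and 3.06 in untreated cells. It was higher with Silvestrol in each passage of 2 h, with overlapping groups, and had a change of 0.02 on the log2 scale at 1 h (log2 change 0.40, SE 0.33, adjusted p = 0.463 without the block; log2 change 0.45, SE 0.13, adjusted p = 0.00248 with it), while its mRNA RPKM was 27.2 with DMSO against 21.8 with Silvestrol. In RFs, LAMA5 stood at 0.216 and 0.233 times the level of LAMC1, its partner in both trimers, with DMSO at 2 h and at 0.463 and 0.434 times with Silvestrol. The same ratio was 0.256 with DMSO and 0.309 with Silvestrol at 1 h, and in mRNA it was 0.685 and 0.751. The 2 h groups of this ratio did not overlap, but 2 libraries against 2 cannot give less than p = 0.33 in a two-sided exact permutation test, which is the value obtained. This pair, and the other pairs of chains set against each other here, were chosen after their values were seen. Not all pairs computed are printed, and some moved less. In RFs at 2 h, LAMB1 stood at 1.38 and 1.16 times LAMB2 with DMSO and at 1.45 and 1.45 times with Silvestrol. ITGB4 stood at 0.313 and 0.266 times ITGA6 with DMSO and at 0.355 and 0.346 times with Silvestrol.

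**Figure D3:**
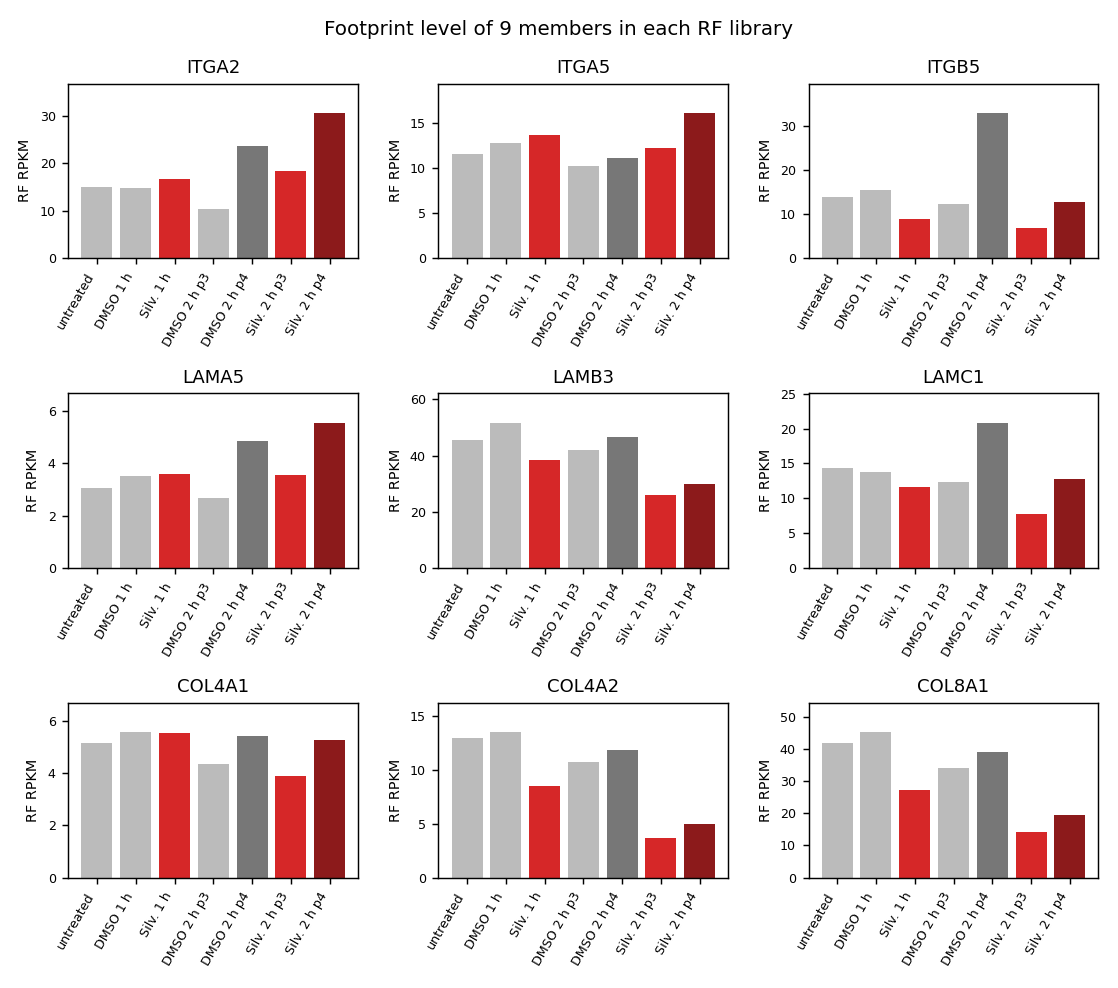
RF level (RPKM, y axis from 0) of 9 members in each of the 7 RF libraries; grey bars are control libraries, red bars Silvestrol, and the darker grey and darker red bars passage 4 (p3, passage 3; p4, passage 4; 1 library per bar, no error). COL4A2 and COL8A1 were lower in each Silvestrol library than in every control library, while COL4A1 ranged from 3.90 to 5.57 RPKM over all 7.

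The main chains of type IV collagen start in 1 shared region, and COL4A2 fell in footprints while COL4A1 was not called. COL4A1 (chr13:110801310-110959504, minus strand) and COL4A2 (chr13:110958159-111165556, plus strand) lie head to head, and their proteins join as 2 α1 chains and 1 α2 chain in the basement membrane network. The 126 bases between their start sites in RefSeq (GRCh38.p14, chr13:110307158-110307283, plus strand) are shown because both genes start at their edges; capitals mark a CCAAT box and a GC box with the letters GGGCGG.
COL4A1-COL4A2 start region: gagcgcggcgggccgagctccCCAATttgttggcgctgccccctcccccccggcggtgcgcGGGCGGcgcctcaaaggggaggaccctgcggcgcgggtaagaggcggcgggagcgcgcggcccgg
This stretch is 80.2% G and C. Searched on both strands, with no overlap between the pair of motifs, it held 1 match for each. CCAAT occurs in 21.1% and GGGCGG in 34.6% of 35,116 RefSeq promoter windows, each cut to the 126 bases before the start site.

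COL4A2 had an RF RPKM of 12.9 in untreated cells, 13.5 with DMSO and 8.46 with Silvestrol at 1 h, 10.7 and 11.8 with DMSO at 2 h, and 3.67 and 4.97 with Silvestrol at 2 h. All 3 Silvestrol libraries were below the 4 control libraries, and the test called it in both fits (log2 change −1.28, SE 0.19, adjusted p = 0.0257 without the block; log2 change −1.30, SE 0.15, adjusted p = 9.74e-18 with it). Its mRNA differed less, 26.2 with DMSO against 21.0 with Silvestrol. COL4A1, named here after its values were seen, stood at 4.37 and 5.41 RF RPKM with DMSO and at 3.90 and 5.27 with Silvestrol at 2 h, against 5.57 and 5.56 at 1 h and 5.17 in untreated cells. Those groups overlapped and no fit called the gene (adjusted p = 0.966 and 0.951), and its mRNA RPKM was 7.03 with DMSO against 6.03 with Silvestrol.

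The ratio of COL4A2 to COL4A1 in RF RPKM was 2.50 in untreated cells, 2.42 with DMSO at 1 h, and 2.45 and 2.18 with DMSO at 2 h. With Silvestrol it was 1.52 at 1 h and 0.940 and 0.943 at 2 h. It thus lay lower at 2 h than at 1 h, and neither time overlapped with the 4 control libraries; the exact permutation test at 2 h gave its smallest possible value, p = 0.33. In mRNA the ratio was 3.73 with DMSO and 3.48 with Silvestrol. The library preparation kept the strand, and positions under more than 1 transcript were left out of the counts, which bears on the overlapping annotated ends of this gene pair.

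For these collagens a stretch of 54 bases is shown from the longest unbroken run of glycine triplets. Each is in the direction of the mRNA, with the glycine codon of each triplet in capitals. All were taken from inside such a run, so the shared pattern follows from the choice. The runs held 40 triplets in COL4A1, 66 in COL4A2, 61 in COL8A1 and 338 in COL5A1. COL4A1 (chr13:110866309-110866362, minus strand, exon 3), COL4A2 (chr13:111125416-111125469, plus strand, exon 29), COL8A1 (chr3:99513796-99513849, plus strand, exon 4) and COL5A1 (chr9:137645696-137645749, plus strand, exon 15) are given from GRCh37.
COL4A1: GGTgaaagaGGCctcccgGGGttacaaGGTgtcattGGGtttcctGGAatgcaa
COL4A2: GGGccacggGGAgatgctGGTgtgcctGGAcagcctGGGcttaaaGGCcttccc
COL8A1: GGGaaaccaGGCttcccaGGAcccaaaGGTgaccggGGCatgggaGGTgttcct
COL5A1: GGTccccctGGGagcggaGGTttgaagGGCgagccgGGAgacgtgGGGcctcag
Glycine takes 28.6% of the codons of COL4A1 and 27.6% of those of COL4A2, 25.5% in COL8A1, 23.3% in COL5A1 and 15.2% in COL6A1. The share of glycine codons was thus close in both type IV chains.

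COL8A1 (chr3:99357319-99518070, plus strand), a short-chain collagen of vessel walls and of the membrane under the corneal endothelium, gave 34.1 and 38.9 RF RPKM with DMSO at 2 h, 14.3 and 19.6 with Silvestrol at 2 h, 45.2 and 27.1 in the DMSO and Silvestrol libraries of 1 h, and 41.8 in untreated cells. It had the highest RF level of the collagens, and every Silvestrol library was below every control library (log2 change −1.0, SE 0.18, adjusted p = 0.0359 without the block; log2 change −1.02, SE 0.13, adjusted p = 3.96e-14 with it). Its mRNA also differed, 39.2 with DMSO against 23.7 with Silvestrol.

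COL5A1 (chr9:137533649-137736689, plus strand), the type V chain that nucleates type I fibrils, had an RF RPKM of 5.59 in untreated cells, 5.92 with DMSO and 2.61 with Silvestrol at 1 h, 4.63 and 10.6 with DMSO at 2 h, and 1.58 and 2.98 with Silvestrol at 2 h. This was the largest decrease of the group in both passages and at 1 h, without overlap between the 2 h groups (log2 change −1.66, SE 0.48, adjusted p = 0.0845 without the block; log2 change −1.54, SE 0.16, adjusted p = 1.91e-19 with it). The DMSO libraries differed from each other by more than 2-fold, and the mRNA RPKM was 30.8 with DMSO against 16.3 with Silvestrol. It was called lower without the block by DESeq2 (adjusted p = 0.00455) and by edgeR without the minimum on RPKM (adjusted p = 0.0373).

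COL9A2, a chain of the cartilage collagen IX, stood at 3.34 and 4.80 RF RPKM with DMSO and at 1.88 and 2.21 with Silvestrol at 2 h, against 2.92 and 1.31 at 1 h and 2.22 in untreated cells (log2 change −0.79, SE 0.26, adjusted p = 0.00565 with the block; adjusted p = 0.130 without it). Its 2 h values rest on 16 to 240 reads, and they did not overlap; the mRNA RPKM was 10.3 with DMSO against 6.08 with Silvestrol. COL1A1, the α1 chain of type I collagen, gave 1.72 and 1.26 RF RPKM with DMSO at 2 h, 0.877 and 1.10 with Silvestrol at 2 h, 1.79 and 1.62 in the DMSO and Silvestrol libraries of 1 h, and 1.76 in untreated cells (log2 change −0.61, SE 0.27, adjusted p = 0.0478 with the block; adjusted p = 0.337 without it). Its passage 4 Silvestrol library held 17 reads, and with an added correction for counted length the block no longer called it. The mRNA of COL1A1 was 1.13 with DMSO against 1.14 with Silvestrol.

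In type VI collagen, COL6A1 was higher with the block, and so was COL6A2 once its entries were summed. COL6A1 (chr21:47401684-47424964, plus strand) had an RF RPKM of 6.80 in untreated cells, 8.39 with DMSO and 8.58 with Silvestrol at 1 h, 6.89 and 13.0 with DMSO at 2 h, and 9.80 and 20.3 with Silvestrol at 2 h. Each passage was higher with Silvestrol, and the groups overlapped (log2 change 0.70, SE 0.42, adjusted p = 0.314 without the block; log2 change 0.69, SE 0.14, adjusted p = 4.18e-06 with it). Its mRNA was lower, 34.5 with DMSO against 24.0 with Silvestrol. COL6A2, the partner chain, is listed as 2 entries between which the reads move from library to library, so its reads were summed: 446 and 173 with DMSO and 277 and 95 with Silvestrol at 2 h, 564 and 432 at 1 h, 436 in untreated cells, and 6,107 and 2,198 in mRNA. Summed, its log2 RF change was 0.47 (SE 0.33, adjusted p = 0.373) without the block and 0.48 (SE 0.17, adjusted p = 0.0110) with it, so that the block then called 7 members higher. In RPKM of the entry used, COL6A2 stood at 3.73 and 6.22 RF RPKM with DMSO and at 4.65 and 8.29 with Silvestrol at 2 h, against 3.07 and 3.52 at 1 h and 4.14 in untreated cells, and at 18.6 with DMSO against 15.5 with Silvestrol in mRNA.

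The collagens of the plasma membrane and COL18A1 gave no call in RFs. COL13A1, a transmembrane collagen, gave 17.2 and 26.7 RF RPKM with DMSO at 2 h, 14.3 and 18.0 with Silvestrol at 2 h, 23.5 and 19.8 in the DMSO and Silvestrol libraries of 1 h, and 20.5 in untreated cells. It was lower with Silvestrol in each passage but not called (adjusted p = 0.424 and 0.0915), and its mRNA RPKM was 55.4 with DMSO against 57.1 with Silvestrol. COL17A1, the transmembrane collagen of hemidesmosomes, had an RF RPKM of 3.88 in untreated cells, 4.14 with DMSO and 3.49 with Silvestrol at 1 h, 3.78 and 2.41 with DMSO at 2 h, and 3.29 and 2.66 with Silvestrol at 2 h, also without a call (adjusted p = 0.909 and 0.873). Its mRNA RPKM, 3.86 with DMSO against 1.79 with Silvestrol, had the lowest change of the group. COL18A1, the source of endostatin, stood at 6.92 and 13.7 RF RPKM with DMSO and at 7.08 and 11.4 with Silvestrol at 2 h, against 8.05 and 7.36 at 1 h and 6.96 in untreated cells, again without a call (adjusted p = 0.961 and 0.860), and its mRNA RPKM was 47.0 with DMSO against 31.1 with Silvestrol. COL12A1, which decorates type I fibrils, averaged 3.85 RF RPKM and was not called.

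To test footprints relative to mRNA, 1 edgeR model over 6 libraries took the interaction of treatment with kind of library. No member was called, and ITGA5 came closest (adjusted p = 0.0767); over all genes the model called 0.0190% lower and 0% higher, and 2 members had an unadjusted p under 0.05, against 24.9% of all genes. DESeq2 called ITGA5 alone higher (log2 change 1.66, adjusted p = 0.00207) and no member lower, against 5.36% and 7.23% of the genes to which it gave an adjusted p. With the passage as a block 4 members were called lower and 9 higher, against 22.5% and 22.7% of all genes. The mRNA libraries are of passage 3 only, so mRNA adds no spread between cultures to this model.

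ITGA5 had the highest TE change with the block (1.59, SE 0.19, adjusted p = 4.64e-05), followed by COL6A1 (1.33, SE 0.19, adjusted p = 1.66e-04), COL17A1 (1.28, SE 0.29, adjusted p = 0.00323) and ITGA2 (1.18, SE 0.22, adjusted p = 9.56e-04). ITGB4, LAMA5, ITGAE, COL18A1 and ITGB1 were also called higher, with changes between 0.72 (ITGB1) and 1.03 (ITGB4). Of the members called lower apart from COL6A2, COL4A2 had the lowest change (−0.85, SE 0.19, adjusted p = 0.00330), and LAMB1 (−0.52, SE 0.19, adjusted p = 0.0364) and LAMB3 (−0.46, SE 0.16, adjusted p = 0.0362) followed. COL6A2 was called lower from the entry used (−1.03, SE 0.29, adjusted p = 0.0116), but higher from its summed entries (1.12, SE 0.22, adjusted p = 0.00117), so its direction depends on which entry the reads are given to. For COL17A1, COL18A1 and ITGB1 the RF change was not called and the mRNA was lower; for COL5A1 and COL8A1 the mRNA was lower along with the RFs, and neither was called in TE (adjusted p = 0.0736 and 0.477 with the block).

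The study sorted genes by z-scores of TE with thresholds of −1.5 and 1.5. Here the z-score is the log2 change in TE of passage 3 minus the mean of all genes and divided by their SD, which need not be how the study computed it. No member was under −1.5 (6.75% of all genes were) and 1 was over 1.5 (4.85% of all genes), namely ITGA5 at 1.60. Just under it were ITGA2 at 1.498 and COL6A1 at 1.38. At the other end, COL4A2 had −0.93 and COL1A1 −0.68. The median z-score was 0.39 over the 29 members and 0.03 over all genes, and 19 members were above 0. With RFs of passage 4, on the mean and SD of passage 3, ITGA5 (1.87), COL17A1 (1.61) and COL6A1 (1.52) were over 1.5 (4.59% of all genes) and none was under −1.5 (6.23% of all genes).

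At the mRNA level most members were lower with Silvestrol. In the single pair of mRNA libraries 25 of the 29 had a log2 change below 0, against 47.3% of all genes, and 27 were below the median of all genes; the median was −0.32 over the members and 0.04 over all genes. The change was past 2-fold for 1 member, COL17A1 (log2 −1.11), against 1.78% of all genes, and for none in the other direction, against 4.71% of all genes. ITGA5 (−0.98) and COL5A1 (−0.92) came close to 2-fold. The members with higher mRNA were LAMB1 (0.20), COL13A1 (0.05), LAMB3 (0.04) and COL1A1 (0.02). With 1 library per treatment none of this has a replicate check.

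The footprint changes of 2 h were partly present at 1 h, in 1 library per treatment. COL5A1 (log2 −1.18) and COL9A2 (−1.16) were lower by more than 2-fold, against 7.98% of all genes, and no member was higher by as much, against 0.343% of all genes. ITGB5 (−0.80), COL8A1 (−0.74), COL4A2 (−0.67) and LAMB2 (−0.54) followed. COL4A2 and COL8A1 had smaller changes at 1 h than in either passage at 2 h, whereas ITGAE, at 0.70, was the highest at 1 h. The median at 1 h was −0.21 over the members and −0.19 over all genes.

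Untreated cells differed little from DMSO cells in these genes. Against the geometric mean of the DMSO libraries of 1 h and 2 h in passage 3, no member was past 2-fold lower (0.515% of all genes) or higher (0.162% of all genes), and the log2 differences ran from −0.49 for COL9A2 to 0.28 for ITGA2, leaving out COL6A2 because its reads move between entries. The changes of COL4A2, COL8A1, COL5A1 and ITGB5 with Silvestrol in passage 3 at 2 h were larger than any of these differences between control libraries.

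The members differ in the 5′ UTR, the stretch that eIF4A helps to unwind. Its length in GENCODE (release 44, lifted to GRCh37) ranged from 35 nt in ITGB3 to 518 nt in COL13A1, with a median of 130 nt over the 29 members and 134 nt over 9,067 of the genes tested. The 6 members called higher in RFs with the block had 5′ UTRs of 44 to 164 nt and a median of 74.5 nt, and the 12 called lower had 89 to 385 nt and a median of 191 nt. COL4A1 has 130 nt and COL4A2 289 nt. COL5A1 (385 nt), ITGB5 (365 nt) and ITGA3 (330 nt) were lower, and LAMA5 (67 nt), ITGA5 (68 nt) and ITGAE (44 nt) higher. COL13A1 and COL12A1 (312 nt) have long 5′ UTRs and were not called, while COL9A2 (89 nt) and LAMB3 (94 nt) have short ones and were called lower.

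**Figure D4:**
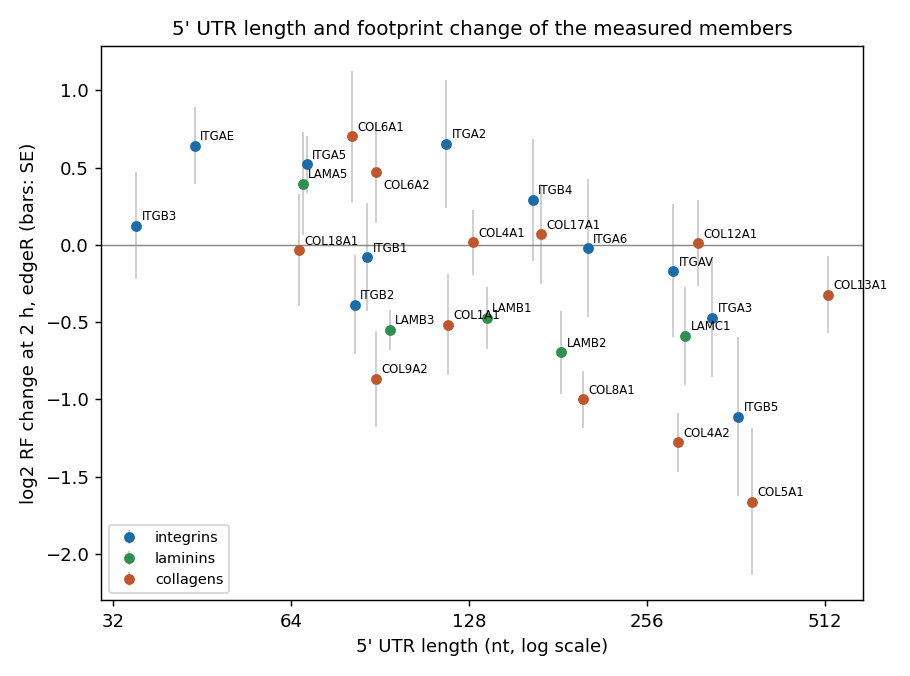
Length of the annotated 5′ UTR (nt, log scale) against the log2 RF change at 2 h from edgeR without the block (error bars, SE of the fit over 4 libraries) for 28 of the 29 measured members, with COL6A2 from its summed entries. The members with the lowest changes, COL5A1, COL4A2 and ITGB5, lie at 385, 289 and 365 nt.

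Across the 29 members the log2 of 5′ UTR length and the log2 RF change had a Pearson's r of −0.55 and a Spearman's rho of −0.55. Over 9,059 genes r was −0.57 and rho −0.59, close to the values over the members. These are descriptions across genes that share the same 4 libraries, and genes are not independent replicates. GC content of the 5′ UTR had an r of 0.02 with the change over the members, and the share of glycine codons −0.37 against 0.07 over all genes. For glycine codons Spearman's rho was smaller in size over the members, −0.22, against 0.085 over all genes. Coding sequences were long, with a median of 3537 nt against 1410 nt for all genes, and their length had an r of 0.07 with the change over the members.

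Genes that act with these proteins were read from 4 lists. Of matrix ligands and adaptors other than collagens and laminins (20 genes, 10 measured), none was called without the block, against 7.76% of all genes lower and 2.23% higher. With it 2 were lower, FN1 and HSPG2, and 5 higher, THBS1, AGRN, FBLN1, CYR61 and CTGF, against 28.1% and 25.0% of all genes. Of enzymes and carriers that fold, modify, cross-link or export collagen, 23 were measured, and 1 was called lower, SEC24D, a coat protein of the vesicles that leave the endoplasmic reticulum. SEC24D stood at 75.3 and 80.8 RF RPKM with DMSO and at 33.0 and 41.3 with Silvestrol (log2 change −0.95, SE 0.14, adjusted p = 0.0257). With the block 4 of these 23 were lower and 10 higher, against 28.1% and 25.0% of all genes. None of their z-scores was under −1.5 (6.75% of all genes), and 4 were over 1.5 (4.85% of all genes), those of P4HB (1.51), PLOD1 (2.10), SERPINH1 (1.52) and LOXL4 (2.55), the prolyl hydroxylase β subunit, a lysyl hydroxylase, a collagen chaperone and a lysyl oxidase. From DMSO to Silvestrol, their single mRNA values went from 482.3 to 338.3, 98.4 to 46.9, 177.4 to 101.0 and 51.4 to 17.8 RPKM, in that order. In RFs none of the 4 was called without the block, and all 4 were with it.

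Of 28 measured partners of integrins at the membrane, 5 were lower without the block, TLN1, SRC, ACTN1, KANK2 and ITGB1BP1, and 1 was higher, against 7.76% and 2.23% of all genes, and with the block 13 were lower and 6 higher, against 28.1% and 25.0%. TLN1, the talin that activates integrins, went from 184.0 and 183.1 RF RPKM with DMSO to 85.6 and 91.3 with Silvestrol (log2 change −0.92, SE 0.10, adjusted p = 0.0173). KANK2, which binds talin, went from 41.5 and 36.8 to 11.7 and 12.2 (−1.59, SE 0.16, adjusted p = 0.0169). PXN had a z-score of 5.05, but no RPKM value in passage 4 and an mRNA RPKM that went from 121.2 to 3.79, so that value is given with no reading. Of 14 measured proteases and their inhibitors 1 was called lower, MMP14, the membrane protease that cleaves collagen at the cell surface, against 7.76% of all genes, and with the block 5 were lower and 1 higher, against 28.1% and 25.0%. MMP14 went from 78.6 and 141.5 RF RPKM with DMSO to 30.4 and 38.2 with Silvestrol (−1.54, SE 0.29, adjusted p = 0.0374). MMP11 (2.15) and CTSB (1.53) had z-scores over 1.5 while none was under −1.5, against 4.85% and 6.75% of all genes. MMP11 had only 0.731 RF RPKM with DMSO and 1.53 with Silvestrol in passage 3. For CTSB the mRNA RPKM was 182.2 with DMSO against 92.5 with Silvestrol, and neither edgeR fit called its RFs (adjusted p = 0.855 without the block). The median log2 RF change was 0.32 for the ligands, 0.14 for the collagen makers, −0.25 for the integrin partners and −0.31 for the proteases, beside −0.02 for all genes. In TE with the block, 2 of the 23 collagen makers were lower and 12 higher, against 22.5% and 22.7% of all genes. The counts were 0 and 2 of 10 ligands, 8 and 9 of 28 integrin partners, and 4 and 5 of 14 proteases. These rest on the unreplicated mRNA libraries.

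With INK128 no member changed past the thresholds in footprints or TE. The table gives FPKM, a level per length like RPKM, without counts, and 24 members were measured in 1 library per condition; these were the members above except COL1A1, COL9A2, COL17A1, ITGAE, ITGB2 and ITGB3, with LAMA3 added. The log2 RF change ran from −0.58 for COL18A1 to 0.47 for COL12A1, with a median of 0.17 over the members and 0.01 over all genes. None was past 2-fold, against 1.96% of all genes lower and 1.69% higher. COL18A1 went from 37.3 to 24.9 RF FPKM, COL12A1 from 6.01 to 8.34 and ITGB1 from 291 to 352. The genes that fell with Silvestrol stayed near their control here: COL4A2 was at 22.4 and 22.7 RF FPKM and COL8A1 at 57.4 and 62.0.

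Total RNA values of nearly all genes were lower in the INK128 library, with a median log2 change of −1.17 over all genes and −1.14 over the members. By that scale 23 of the 24 members were past 2-fold lower, against 73.8% of all genes, and none was higher, against 0.0563% of all genes. Relative to the median of all genes none was past 2-fold, and the values ran from −0.59 for COL4A1, which went from 0.519 to 0.154 FPKM, to 0.17 for ITGA3, from 17.4 to 8.75 FPKM. The z-scores of TE ran from −0.77 for LAMA5 to 1.16 for COL4A1, so none was past −1.5 (5.58% of all genes) or 1.5 (1.75% of all genes). COL18A1 was at −0.73 and ITGB4 at −0.48.

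**Figure D5:**
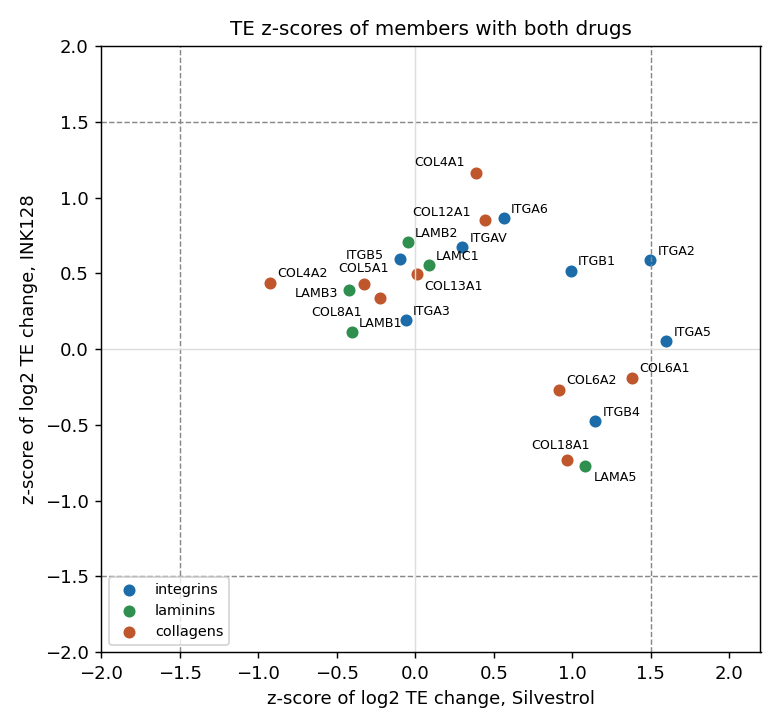
z-score of the log2 change in TE with Silvestrol (x axis) and with INK128 (y axis) for 22 of the 23 members measured with both drugs; dashed lines mark −1.5 and 1.5. ITGA5 is the only point past a line, at 1.60 with Silvestrol and 0.05 with INK128.

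Over the 23 members measured with both drugs the z-scores had a Pearson's r of −0.37 and a Spearman's rho of −0.21, and over 5,816 genes r was −0.13 and rho −0.11. The members highest with Silvestrol, ITGA5, ITGA2 and COL6A1, stood at 0.05, 0.59 and −0.19 with INK128. COL18A1, LAMA5 and ITGB4 stood at 0.97, 1.08 and 1.15 with Silvestrol and were the 3 lowest with INK128. Each z-score rests on 1 RF and 1 RNA library per condition, the experiments share no control and differ in unit, and these are descriptions across genes.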

How the data were processed

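The authors mapped strand-specific reads to hg19 with Bowtie, allowing 2 mismatches and up to 16 alignments per read, and deposited read counts and RPKM per canonical transcript, without positions under several transcripts. For INK128 the authors deposited FPKM values without counts; the program is not given in the sources used here. The submitters' processing notes also list Bowtie2 and CASAVA 1.8.1. The TE ratio columns the authors deposited, and their means over passages, were not used. Every per-sample column was mapped (0 left out).

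Counts of the 2 h libraries were tested with edgeR 4.0.16 (TMM scaling, quasi-likelihood, Benjamini-Hochberg, threshold 0.05) in R 4.3.3, over 10,505 genes, with DESeq2 1.42.0 as an alternative; TE was the interaction over 6 libraries. The scripts were tested on simulated data. The passages, given by the labels, pair the libraries: deviations from group means had r = 0.582 over 10,433 genes. They are passages of 1 line, so p-values do not measure spread beyond that line. With the block few degrees of freedom are left, and p-values rest largely on spread pooled over all genes. COL1A1 was called with the block although its log2 RF changes were −0.970 in passage 3 and −0.195 in passage 4. Log2 changes of RPKM and FPKM had no pseudocount, and single libraries have no test. Alternatives covered scaling, filters, pseudocounts, thresholds, the block and left-out libraries.

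The members, lists and tests were chosen with earlier results of these data known. Named members are the 14 averaging 10 or more RF RPKM at 2 h and those that the fits or thresholds called, 25 in all, apart from those said to be chosen later; 1 of the 25 and 1 listed partner gene are not reported here, though counts include them and figures do not. RefSeq and GENCODE release 44 gave sequences and 5′ UTRs (86.31% of genes matched).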

Additional observations from a re-analysis of the deposited data

How the results depend on the processing

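With the passage as a replicate block, 12 members were called lower and 6 higher in RFs (2 and 0 without it), and 4 lower and 9 higher in TE (0 and 0 without it). The block with an offset for counted length gave 11, 6, 3 and 10, and the block with the entries of each gene summed, chosen after seeing the data, gave 12, 7, 3 and 10. The TE change of COL6A2 was negative from the entry used and turned to 0.888 with the offset, 1.093 with summed entries, and 0.877 and 1.122 with each of these and the block. Leaving out 1 library gave 0 to 5 members lower and 0 to 1 higher in RFs and 0 to 1 higher in TE; without either Silvestrol library none was lower, and without the DMSO library of passage 3 there were 5, with COL5A1, ITGB5 and LAMB2 added, and without that of passage 4 ITGA2 was higher. Each such fit leaves 1 library in an arm, which is assumed to vary like the other group, and sets 1 passage against both, so that passage and treatment are mixed. DESeq2 called 1 member higher in TE.

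Other changes of sign were in values that no fit called in that setting. In RFs, with DESeq2's size factors in edgeR, DESeq2, the block, the block with the offset and the block with summed entries, COL18A1 turned to 0.003, 0.004, 0.031, 0.050 and 0.030 and ITGA6 to 0.016, 0.018, 0.043, 0.063 and 0.042. In TE, LAMC1 turned to 0.033, 0.035, 0.011, 0.020 and 0.006 in the same order, and ITGAV to −0.031 with a minimum of 5. Leaving out 1 library gave RF changes of −0.218 to 0.497 for COL17A1, −0.434 to 0.478 for COL18A1, −2.549 to 3.363 for COL6A2, −0.950 to 0.027 for ITGA3, −0.510 to 0.644 for ITGA6, −0.647 to 0.411 for ITGAV, −0.475 to 0.462 for ITGB1 and −0.170 to 0.797 for ITGB4. Without a change of sign, the RF changes ran from −1.664 to −0.311 for ITGB5, −2.150 to −1.025 for COL5A1, −0.586 to −0.018 for COL13A1, −1.0 to −0.327 for LAMB2, −0.939 to −0.213 for LAMC1, −0.667 to −0.252 for LAMB1, −0.742 to −0.223 for COL1A1, 0.186 to 1.305 for ITGA2, 0.157 to 1.166 for COL6A1 and 0.037 to 0.838 for LAMA5. With a change of sign, the TE changes were −0.532 to 0.021 for COL13A1, −4.001 to 1.731 for COL6A2, −0.227 to 0.203 for COL9A2, −0.575 to 0.331 for ITGA3, −0.198 to 0.930 for ITGA6, −0.357 to 0.650 for ITGAV, −1.119 to 0.218 for ITGB5 and −0.352 to 0.327 for LAMC1. Without one, they ran from 0.256 to 1.156 for COL18A1, 0.248 to 1.177 for ITGB1, 0.594 to 1.703 for ITGA2, 0.577 to 1.467 for ITGB4, 0.454 to 1.243 for LAMA5, 0.835 to 1.764 for COL6A1, −0.767 to −0.366 for LAMB1, −1.147 to −0.045 for COL5A1, −0.683 to −0.024 for LAMB2, −0.670 to −0.130 for COL1A1 and −0.314 to −0.019 for COL8A1.

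Members over the z-score threshold with Silvestrol (1) became 2 with a pseudocount of 0.5 or 0.1, with the median and MAD or with no minimum, which also gave 1 lower. They became 0 with a threshold of 2 or untreated RFs as control, and 3 with RFs of passage 4 or the mean of both passages. Members past 2-fold lower at 1 h (2) became 1 with a pseudocount of 0.5, 6 with no minimum (3 higher), 0 with a minimum of 5 and 5 past 1.5-fold (1 higher). For mRNA the 1 lower member became 0 with a pseudocount of 0.5 or a minimum of 5, 5 with no minimum (1 higher) and 9 past 1.5-fold. Untreated cells gave 2 lower and 2 higher with no minimum. For INK128, z-scores gave 2 lower and 2 higher with no minimum or with the median and MAD, and RFs 1 lower with no minimum. In total RNA the 23 lower members became 4 and 15 with pseudocounts of 0.5 and 0.1, 1 with a minimum of 5, and 0 relative to the median of all genes, chosen after seeing the data. The cause of these differences was not tested. For the members named in the text, 224 of 305 alternatives in RFs and 243 of 305 in TE kept the direction and the side of the threshold, and 25 and 23 changed sign. The passage 4 Silvestrol library holds 10 to 1334 reads per measured member, which limits every value at 2 h, and unreplicated mRNA limits TE.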
